A study of Mus musculus with 17 samples.

Results

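The comparison described here set ovarian germ cells of mouse embryos against testicular germ cells of stage E13.5, without regard to the irradiation that the study was built to examine. It used 6 of the 17 RNA-sequencing libraries: 3 libraries coded FC, from female embryos with no treatment, and 3 libraries coded MC, from male embryos. Its members are the autosomal genes with an FPKM (fragment counts scaled by transcript length and library depth) of 1 or more in at least 3 of these 6 libraries. That left 10881 genes of the 23361 in the table, of which 22138 are autosomal. A further 435 genes on X, 6 on Y and 54 without an assigned chromosome passed the same filter and were left out. Strain, genotype and the way the germ cells were isolated are not stated. No source says that the 3 libraries of a group are separate animals or pools, so every p-value below reflects library-to-library spread, which may be technical.

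Germ cells of both sexes reach the gonad as bipotential cells and take their sexual direction from the tissue around them. In the fetal mouse ovary, BMP signals and retinoic acid lead them to switch on Stra8, to load meiotic cohesin and to enter the prophase of meiosis. In the fetal testis, Sertoli cells form cords around them, retinoic acid is broken down, Nodal signalling passes briefly through the germ cells, and they later stop dividing in mitotic arrest, with Nanos2 as a marker of the male course.

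For the males the labels contradict each other. Their titles and conditions describe the libraries coded MC as irradiated and those coded MIR as untreated, whereas the codes read the other way, and the code was used. Ccng1, a p53 target, stood at 48.0 ± 2.50 FPKM in FC (mean ± SD, n = 3, as throughout) and at 37.5 ± 2.88 in MC, against 250 ± 33.2 in MIR and 218 ± 21 in the irradiated female group FIR. Phlda3, another p53 target, stood at 10.1 ± 1.84 in FC, 9.05 ± 1.32 in MC, 56.4 in MIR and 49.8 in FIR. The libraries coded MC thus lay beside the untreated female group in both genes. The sex labels held for all 6 libraries: Eif2s3y, a Y-linked gene, was at 146 ± 11.4 FPKM in MC and at 0.111 or less in each FC library.

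Depth is not given with the values; estimated from the smallest steps between low FPKM values, it was about 17200000, 26400000 and 13900000 fragments in FC 1 to 3 and 13500000, 16200000 and 17300000 in MC 1 to 3. Each library had between 10915 and 11285 genes at an FPKM of 1 or more.

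Germ cell identity was clear in both groups. Dazl, an RNA-binding protein of germ cells, was listed at 751, 792 and 880 FPKM in FC and 745, 726 and 800 in MC, and Ddx4, the germ cell RNA helicase VASA, at 312, 331 and 349 against 272, 318 and 321. The ranges of the groups overlapped for both genes and neither differed by the test. Markers of neighbouring cells were far lower than the germ cell list, whose 19 genes summed to between 3862 and 4110 FPKM in FC and between 4532 and 4940 in MC. All 13 genes of the Sertoli list had a higher mean in MC, and the list summed to 28.0, 30.2 and 28.7 FPKM in FC and to 79.4, 118 and 133.8 in MC. Most of the FC sum came from Aard, a gene of the list that did not differ, at 26.3 ± 0.583 and 29.0 ± 5.19. All 10 genes of the macrophage list had a higher mean in FC, with sums between 15.8 and 22.1 FPKM against 6.66 to 8.53 in MC. All 11 mesenchyme genes also had a higher mean in FC, although the sums, 10.8 to 14.8 and 3.87 to 11.3, overlapped. The 9 pregranulosa genes summed to between 6.28 and 7.23 in FC and between 3.05 and 4.48 in MC, and Foxl2, their defining factor, was at 0.344 or less in every library. Erythroid genes split the male libraries, with 14.1, 102.5 and 5.96 FPKM in MC 1, 2 and 3. In FC 1, 2 and 3 they summed to 34.0, 28.7 and 44.0. The part of these cells in any difference below was not tested. In bulk libraries, fewer cells of a type and less RNA per cell cannot be told apart.

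**Figure D1:**
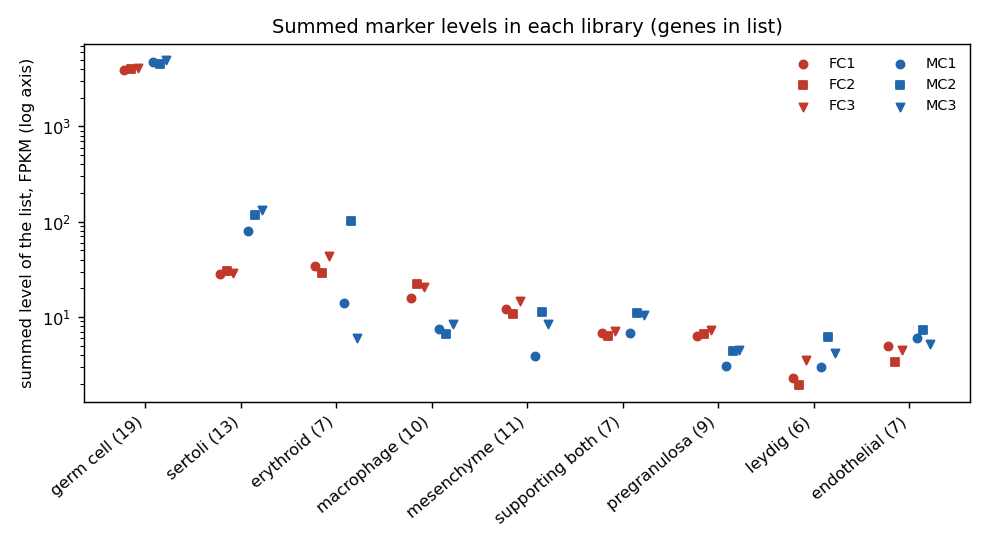
Summed FPKM (log axis) of the genes of 9 marker lists in each of the 6 libraries, with the number of genes in brackets. Germ cell sums lie between 3862 and 4940, Sertoli sums between 79.4 and 133.8 in MC against 30.2 or less in FC, and macrophage sums are higher in FC.

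Ovarian and testicular germ cells differed across a large part of the transcriptome. Of the 10881 genes tested, 5794 (53.2%) passed an adjusted p of 0.05 in limma's moderated test on log2(FPKM + 1); 2532 (23.3%) were higher in FC and 3262 (30.0%) were higher in MC. The split between the directions depended on the scaling: 2878 and 2791 genes were called with median scaling, and 2873 and 2782 with quantile normalization. Of the calls, 323 higher in FC were under 1 FPKM in every MC library and 176 higher in MC were under 1 in every FC library; these passed the filter through the higher group alone, so the list counts below that include them are descriptions. The value ranges of the groups did not overlap for 6705 genes (61.6%). Most differences were small: the median absolute difference over all genes was 0.30 on the log2 scale, and 466 called genes were more than 2-fold higher in FC and 411 in MC. Above 4-fold there were 44 genes in FC and 58 in MC. On the deposited scale, 991 called genes with a mean under 5 FPKM were higher in FC and 598 in MC, and among genes above 100 FPKM 103 were higher in FC and 354 in MC. Libraries of a group correlated at 0.986 or more and libraries of different groups at 0.940 to 0.953 (Pearson's r over genes, a description). The first principal component, with 79.2% of the variance, separated FC from MC, and the second, with 8.52%, set MC 1 apart from MC 2. Every difference below is FC minus MC on log2(FPKM + 1), a scale that understates the change of low genes. Counts of list members below stand against these shares over all genes, 23.3% higher in FC and 30.0% higher in MC.

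**Figure D2:**
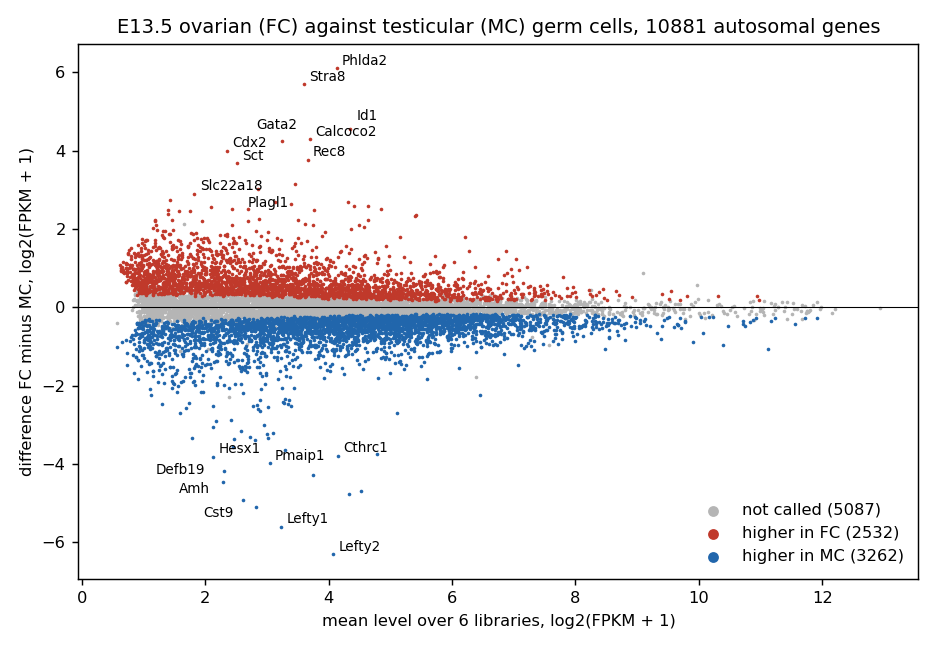
Difference FC minus MC against the mean level over 6 libraries, both on log2(FPKM + 1), for the 10881 genes, with colours for genes higher in FC (2532), higher in MC (3262) and not called. Names mark genes among the 10 largest called differences in each direction whose ranges do not overlap, predicted and small RNA genes left out; Phlda2 and Stra8 lie at the top and Lefty2 and Lefty1 at the bottom.

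The largest rise in the ovary belonged to Phlda2, an imprinted gene whose product limits placental growth in the mouse (chr7:143501545-143503150, GRCm38). It was listed at 135, 153 and 144 FPKM in FC and at 1.16, 1.18 and 0.997 in MC. The groups lay far apart, with a difference of 6.10 ± 0.0859 (SE; limma adjusted p = 5.87e-10). With predicted genes such as Gm1564 (difference 3.15) left out by the rule of choice, others of the 10 largest were Stra8, Id1, Gata2, Rec8, Plagl1 and Slc22a18, which are described with their groups, and 3 genes of no list. Calcoco2, an autophagy receptor, was at 56.2 FPKM in FC and 1.95 in MC (difference 4.29). Cdx2, a homeobox factor of trophectoderm and gut, was at 18.4, 20.4 and 19 in FC and at 0.283, 0.352 and 0.192 in MC (difference 3.99). Sct, the hormone secretin, was at 19.4 in FC and 0.608 in MC (difference 3.67). All 10 had ranges that did not overlap, which the rule of choice required.

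In the testis the largest differences were those of Lefty2 and Lefty1, inhibitors of Nodal. Cst9 and Amh, also among the 10 largest, stand in the Sertoli list. Cst9, a cystatin, was at 0.110 FPKM in FC and 34.1 in MC, and Amh, the anti-Mullerian hormone, at 0.0311 and 22.6. Defb19, a beta-defensin, was at 0.184 in FC and 21.3 in MC (difference -4.18). Hesx1, a homeobox repressor, was listed at 0.232, 0.187 and 0.0711 FPKM in FC and at 9.07, 20.2 and 19.9 in MC (difference -3.83). Cthrc1, a secreted protein with a collagen repeat, was at 3.86 in FC and 66.2 in MC (difference -3.79). Pmaip1, which encodes the BH3-only death protein NOXA, was at 1.06, 1.15 and 1.0 in FC and at 23.4, 35.6 and 38.5 in MC (difference -3.99; limma adjusted p = 7.21e-07). Among the testicular libraries, Defb19, Hesx1, Cthrc1 and Pmaip1 were lowest in MC 1, the library with the lowest Sertoli sum. MC 1 was also the lowest testicular library for 39.4% of all genes tested. The part of Sertoli RNA in Defb19, Hesx1, Cthrc1 and Pmaip1 was not tested.

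BMP signalling acts through type I and II receptors that phosphorylate SMAD1, SMAD5 and SMAD9, and its transcriptional output is read from the Id and Msx genes. Of the 19 BMP genes tested, 12 were higher in FC and 5 in MC, with a median difference of 0.63 against -0.05 over all genes. Every Id and Msx gene was higher in FC. Id1 (chr2:152736251-152737410), an inhibitor of basic helix-loop-helix factors, was listed at 91.5, 97.3 and 102 FPKM in FC and at 3.40, 2.82 and 3.38 in MC, a difference of 4.55 ± 0.0893 (limma adjusted p = 3.97e-09). Id2 was at 47.1, 47.1 and 55.0 against 6.76, 6.57 and 7.36 (difference 2.68), and Id3 at 141, 141 and 130 against 46.7, 33.7 and 37.0 (difference 1.79). No FC value of these 3 genes fell within the MC range. Msx2, a homeobox gene, was at 21.2 ± 1.34 in FC and 2.59 ± 1.32 in MC (difference 2.69), and Msx1 at 4.05 ± 0.862 and 0.302 ± 0.225 (difference 1.96). An antisense transcript overlaps Msx1, and strand-specific counting is not stated, so their reads cannot be told apart.

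A pair of GATA-type zinc-finger factors followed. Gata2 (chr6:88193891-88207032), which is induced by BMP in many tissues, was listed at 40.3, 41.5 and 38.3 FPKM in FC and at 1.45, 0.938 and 1.17 in MC, a difference of 4.24 ± 0.110 (limma adjusted p = 2.48e-08). Zglp1, which acts below BMP to start the oogenic programme in mouse germ cells, was at 29.2, 30.2 and 26.3 against 11.2, 8.35 and 11.3 (difference 1.40; limma adjusted p = 2.38e-05). Gata2 was close to 1 FPKM in every testicular library, whereas Zglp1 was measurable in all 6. The upstream components went both ways. The receptors Acvr1 and Bmpr1a were higher in FC, by 0.93 and 0.37, and the inhibitory Smad6 by 0.63. Bmp4 and Bmp7, both ligands, were higher in MC, at 11.6 against 3.35 FPKM and at 16.9 against 8.36, as were Smad1, at 7.22 against 2.52, and Smad7. Bmp2, the ligand made by pregranulosa cells, stayed below the filter, at 0.678, 1.06 and 0.919 in FC.

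Retinoic acid is made by retinaldehyde dehydrogenases, carried by CRABP proteins and read by RAR and RXR receptors. Of 13 genes tested, 7 were higher in FC, 3 of them under 1 FPKM in every MC library, and 3 were higher in MC. The median difference was 0.48, against -0.05 over all genes, of which 23.3% were higher in FC and 30.0% in MC. Stra8 (chr6:34920163-34939344), the gatekeeper of meiotic entry, was listed at 53.7, 98.8 and 119 FPKM in FC and at 0.275, 0.866 and 0.977 in MC, a difference of 5.70 ± 0.273 (limma adjusted p = 1.05e-06). It was on in every ovarian library, with FC 1 the lowest, and under 1 FPKM in every testicular one. The binding proteins Crabp1 and Crabp2 were higher in FC, at 65.4 against 18.3 FPKM and at 12.9 against 2.60. Rarb, a receptor that is itself induced by retinoic acid, was at 1.56, 1.85 and 1.63 in FC and at 0.107, 0.0222 and 0 in MC (difference 1.36). It passed the filter through FC alone. Rarb overlaps Top2b, which was at 42.1 FPKM in FC and 21.4 in MC. Strand-specific counting is not stated, so their reads cannot be told apart. Aldh1a1, a synthetic enzyme, went the other way, at 2.23 in FC and 16.6 in MC (difference -2.38). Cyp26b1, which breaks retinoic acid down in Sertoli cells, was below the filter, at 0.228 or less in FC and between 0.734 and 1.38 in MC.

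**Figure D3:**
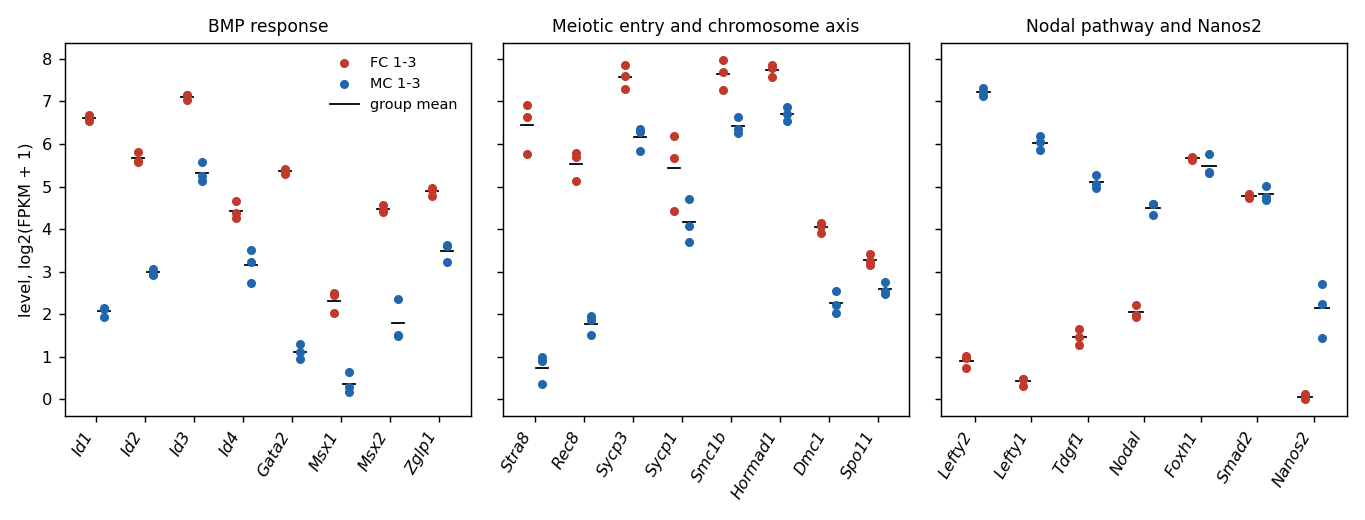
Level in each library, log2(FPKM + 1), of BMP response genes, meiotic genes, and Nodal pathway genes with Nanos2; points are libraries and bars are group means. Stra8 and Rec8 are apart from MC in all FC libraries, Sycp1 overlaps between groups, and Lefty2, Lefty1, Tdgf1 and Nodal are higher in all MC libraries.

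The meiotic chromosome axis is built from meiotic cohesin, the SYCP2 and SYCP3 core and HORMA-domain proteins, and SYCP1 with the SYCE proteins closes the synaptonemal complex over it. Of the 14 axis genes tested, 13 were higher in FC and none in MC, with a median difference of 0.97. Rec8 (chr14:55618037-55625395), the meiotic kleisin subunit of cohesin, was listed at 34.1, 51.1 and 54.1 FPKM in FC and at 1.86, 2.86 and 2.64 in MC, a difference of 3.76 ± 0.180 (limma adjusted p = 1.05e-06). Rad21l, the other meiotic kleisin, was at 1.97, 2.47 and 3.01 against 0.0950, 0.236 and 0 (difference 1.64). Both kleisins were near or below the filter in the testis. Other axis genes were already abundant there: Hormad1 was at 191, 220 and 229 FPKM in FC and at 102, 92.3 and 117 in MC (difference 1.03), Sycp3 at 156, 192 and 232 against 76.5, 55.8 and 80.9 (difference 1.43), and Smc1b at 203 ± 48.7 against 85.0 ± 12.3. Syce3, a central element protein, was at 18.5 ± 3.06 in FC and 5.38 ± 1.52 in MC (difference 1.63).

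Sycp1, the transverse filament, was listed at 20.6, 49.5 and 72.0 FPKM in FC and at 15.9, 12 and 25.3 in MC. FC 1 lay below MC 3, and the difference of 1.26 ± 0.399 (limma adjusted p = 0.0241) was no longer called without FC 2, FC 3 or MC 2, where the adjusted p was 0.0819, 0.0999 and 0.0639, or with robust empirical Bayes, where it was 0.137. The call was also lost with all 12 libraries in the fit (limma adjusted p = 0.0606) and with no filter (limma adjusted p = 0.077). Sycp2 was the one axis gene not called, at 7.16 ± 2.78 and 7.68 ± 1.12. Sycp3 overlaps Chpt1, which was at 30.4 FPKM in FC and 34.9 in MC.

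Recombination begins with breaks made by SPO11 and its partners and proceeds through strand exchange by DMC1 to crossover. Of 23 such genes tested, 14 were higher in FC and 2 in MC, with a median difference of 0.52. Dmc1, the meiotic recombinase, was at 13.9, 15.8 and 16.7 FPKM in FC and at 3.67, 4.85 and 3.10 in MC, a difference of 1.77 ± 0.141 (limma adjusted p = 1.67e-05). Meiob, a single-strand DNA-binding partner of SPATA22, was at 3.29 ± 0.834 against 0.603 ± 0.364 (difference 1.43), and Msh4, a crossover factor, at 3.71 ± 0.909 against 1.01 ± 0.242 (difference 1.22). Spo11, the break enzyme, was at 8.50, 7.89 and 9.64 against 4.88, 4.53 and 5.72 (difference 0.68; limma adjusted p = 0.00118). The groups did not overlap for Dmc1 or Spo11, yet transcripts of both were present in the testis. Mnd1 and Trip13 were the 2 genes higher in MC, by 0.32 and 0.34.

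Among RNA regulators and telomere attachment proteins, 6 of 8 genes were higher in FC and none in MC, with a median of 0.67. Meioc, listed as Gm1564, stabilises meiotic entry together with YTHDC2; it was at 21.8, 33.0 and 43.9 FPKM in FC and at 2.30, 2.66 and 3.09 in MC, a difference of 3.15 ± 0.213 (limma adjusted p = 7.18e-06). Ythdc2 itself was at 19.3 against 14.7 (difference 0.39). The telomere adaptors Terb1, listed as Ccdc79, and Majin, listed as 1700123I01Rik, were higher in FC by 1.36 and 1.71. Terb2, listed as 4933406J08Rik, was not called, at 4.02 ± 1.57 against 2.41 ± 0.477.

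Promoters are shown for the meiotic genes with the smallest adjusted p that RefSeq lists (GRCm38.p6, 250 bases before to 50 after the start), because PRC1.6, a Polycomb complex that represses germline genes in the mouse, holds DNA-binding subunits that read the letters TCCCGC (E2F6) and CACGTG (MGA with MAX). Capitals mark TCCCGC on either strand (GCGGGA where it lies on the other) and CACGTG, which reads alike on both.
Rec8 promoter, chr14:55617916-55618215, plus strand: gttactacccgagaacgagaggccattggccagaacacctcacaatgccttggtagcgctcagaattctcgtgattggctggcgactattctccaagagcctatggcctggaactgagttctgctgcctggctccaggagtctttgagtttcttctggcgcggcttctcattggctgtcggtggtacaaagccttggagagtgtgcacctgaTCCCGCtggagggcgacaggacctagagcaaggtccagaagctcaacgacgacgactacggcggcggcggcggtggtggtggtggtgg
Gm1564 promoter, chr11:102665335-102665634, plus strand: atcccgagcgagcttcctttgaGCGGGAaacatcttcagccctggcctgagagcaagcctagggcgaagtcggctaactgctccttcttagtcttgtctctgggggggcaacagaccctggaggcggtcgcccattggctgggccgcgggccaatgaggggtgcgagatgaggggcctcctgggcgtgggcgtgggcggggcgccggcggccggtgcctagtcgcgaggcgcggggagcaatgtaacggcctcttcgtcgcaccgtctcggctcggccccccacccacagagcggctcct
Dmc1 promoter, chr15:79605060-79605359, minus strand: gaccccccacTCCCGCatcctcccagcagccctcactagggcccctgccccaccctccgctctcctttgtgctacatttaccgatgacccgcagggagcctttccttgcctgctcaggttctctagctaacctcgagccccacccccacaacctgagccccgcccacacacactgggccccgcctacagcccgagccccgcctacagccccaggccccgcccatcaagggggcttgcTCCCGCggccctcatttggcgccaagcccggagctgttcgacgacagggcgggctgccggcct
Rad21l promoter, chr2:151668484-151668783, minus strand: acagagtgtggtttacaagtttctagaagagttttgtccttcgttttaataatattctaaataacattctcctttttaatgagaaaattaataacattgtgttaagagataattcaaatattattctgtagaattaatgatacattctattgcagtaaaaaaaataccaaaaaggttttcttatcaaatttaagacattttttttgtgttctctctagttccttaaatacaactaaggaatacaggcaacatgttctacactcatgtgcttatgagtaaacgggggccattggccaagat
Hormad1 promoter, chr3:95559427-95559726, plus strand: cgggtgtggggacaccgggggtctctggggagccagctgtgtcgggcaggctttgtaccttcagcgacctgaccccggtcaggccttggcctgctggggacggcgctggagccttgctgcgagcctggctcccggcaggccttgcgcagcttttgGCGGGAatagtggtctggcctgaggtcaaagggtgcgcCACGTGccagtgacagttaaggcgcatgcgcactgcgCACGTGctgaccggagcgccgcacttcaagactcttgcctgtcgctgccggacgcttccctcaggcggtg

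TCCCGC stood once in the promoters of Rec8, Gm1564 and Hormad1 and at 2 places in that of Dmc1, and Hormad1 also held CACGTG at 2 places. Rad21l held neither. Of 33 meiotic genes higher in FC, 28 had a listed promoter, and 18 of these (64.3%) held TCCCGC and 9 (32.1%) CACGTG. Among all 27025 promoters the shares were 20% and 7.24%, and among the 8851 tested genes with a promoter 38.1% and 10.8%. Genes higher in FC held TCCCGC in 39.6% and genes higher in MC in 37.9%. For CACGTG these shares were 9.86% and 12.6%. These are counts of letters, not of binding.

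The ovarian libraries were uneven in meiotic transcripts, a pattern noticed after the values were seen. Over the 45 meiotic genes tested, FC 1 was the lowest of the ovarian libraries for 37 genes (82.2%) and FC 3 the highest for 34 (75.6%), whereas over all genes tested these shares were 32.8% and 34.1%. Stra8 in FC 1 was at 53.7 FPKM against 98.8 and 119, and Spata22 at 1.26 against 3.75 and 5.71. Estimated depth put FC 1 between FC 3, the shallowest, and FC 2, the deepest of the ovarian libraries.

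Of 18 oocyte and ovarian germ cell genes, 11 were below the filter, which 10881 of 22138 autosomal genes passed. Among the 11 were Nobox, Gdf9 and the zona pellucida genes Zp1, Zp2 and Zp3. Figla, which later drives the zona genes, was at 1.27, 2.26 and 3.35 FPKM in FC and at 0.372, 0.205 and 0 in MC (difference 1.43, limma adjusted p = 7.12e-04). It was under 1 FPKM in every MC library, so it passed the filter through FC alone and could be called in that direction only. Sohlh2 and Ybx2 were higher in FC by 0.40 and 1.01. Ooep, a maternal-effect gene, was higher in MC, at 40.7 ± 3.20 against 18.9 ± 2.45.

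Nodal signals through activin receptors with the coreceptor CRIPTO, encoded by Tdgf1, to SMAD2, SMAD3 and FOXH1, and it induces its own inhibitors, Lefty1 and Lefty2. Of the 12 genes tested, 7 were higher in MC, 2 of them under 1 FPKM in every FC library, and 1 was higher in FC. Nodal was listed at 3.63, 2.95 and 2.84 FPKM in FC and at 23.3, 23.0 and 19 in MC, a difference of -2.46 ± 0.118 (limma adjusted p = 1.05e-06). Tdgf1 was at 2.16, 1.42 and 1.77 against 37.9, 30.4 and 32.6 (difference -3.64). Ligand and coreceptor were both present at low level in the ovary. Their targets were lower still there: Lefty2 (chr1:180893108-180899103) was at 0.957, 1.02 and 0.676 FPKM in FC and at 159, 139 and 148 in MC, a difference of -6.32 ± 0.0998 (limma adjusted p = 8.58e-10). Lefty1 (chr1:180935022-180938400) was at 0.386, 0.399 and 0.237 against 57.1, 71.3 and 65.5 (difference -5.61). No library lay near the other group for these 4 genes. Lefty1 and Lefty2 are near copies of each other, so the counting could have divided their reads unevenly.

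Of the transducers, Smad2 was at 26.3 ± 1.07 FPKM in FC and 27.3 ± 3.41 in MC, Foxh1 at 49.6 ± 1.5 and 44.1 ± 8.04, and Acvr1b at 8.90 ± 0.676 and 8.18 ± 0.318; none was called. Acvr2b was higher in MC by 0.31 and Acvr2a higher in FC by 0.50. MC 1, with the lowest Sertoli sum, was the highest of the testicular libraries for Nodal, Tdgf1 and Lefty2 and the lowest for Lefty1. For Nodal the lead was small, 23.3 against 23.0 FPKM in MC 2. Over all genes tested, MC 1 was the highest of the testicular libraries for 36.7% and the lowest for 39.4%. The part of Sertoli RNA in these genes was not tested.

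Of 13 male germ cell genes tested, 4 were higher in MC and 4 in FC, against 30.0% and 23.3% of all genes. Nanos2, an RNA-binding protein that holds germ cells to the male course, was listed at 0.0875, 0.0283 and 0 FPKM in FC and at 1.73, 5.59 and 3.74 in MC, a difference of -2.08 ± 0.268 (limma adjusted p = 2.21e-04). Nanos2 was low but present in every testicular library. It was under 1 FPKM in every FC library and passed the filter through MC alone. Dnmt3l, needed later for male germline methylation, was below the filter, at 0.145 or less in each library, and Piwil4, its companion in the male pathway, was not called, at 1.67 ± 0.105 and 1.36 ± 0.150. Of the cell cycle inhibitors of arrest, Cdkn1b, which encodes p27, was at 6.38, 5.49 and 7.09 against 11, 12.7 and 11.4 (difference -0.80; limma adjusted p = 3.63e-04). Cdkn2b, which encodes p15, was at 1.54 ± 0.285 and 2.75 ± 0.813 (difference -0.55; limma adjusted p = 0.0214), and its call was lost without FC 3 or MC 2, where the adjusted p was 0.0873 and 0.0570, with library weights (difference -0.27, adjusted p = 0.0610), with all 12 libraries in the fit (0.0722) and with no filter (0.0563).

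Among the pluripotency genes that early germ cells share with the epiblast and embryonic stem cells, 12 of 22 tested were higher in MC and 5 in FC, with a median of -0.26. Utf1, a chromatin factor, was at 126, 110 and 91.6 FPKM in FC and at 270, 213 and 223 in MC (difference -1.11; limma adjusted p = 1.01e-04). Dppa5a and Dppa3, both very abundant, were lower in FC, with differences of -1.06 and -0.97: Dppa5a was at 1550 ± 150 against 3234 ± 409, and Dppa3, which protects methylation in the zygote, at 955 ± 10.2 against 1877 ± 121. All testicular values of these 3 genes exceeded the ovarian ones. The core factors moved less and not together. Pou5f1, which encodes OCT4, was at 668, 654 and 625 in FC and at 882, 725 and 762 in MC (difference -0.28; limma adjusted p = 0.0184), and Nanog at 85.6, 77.4 and 73.1 against 96.3, 90.6 and 94.6 (difference -0.25). Sox2 was higher in FC, at 124, 112 and 105 against 104, 85.4 and 88.2 (difference 0.30). Lin28a, an inhibitor of let-7 maturation, was also higher in FC, at 151 ± 1.46 against 85.6 ± 4.21 (difference 0.81).

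Calls of Pou5f1 and Nanog were lost without FC 2, with adjusted p of 0.0577 and 0.0588, or without FC 3, with 0.0763 and 0.0645. Nanog's was also lost without MC 3 (0.0536), and Sox2's without FC 1, FC 2 or MC 3 (0.0789, 0.0541 and 0.0721). Median scaling took Pou5f1 to an adjusted p of 0.0655 and quantile normalization took Nanog to 0.285, and with all 12 libraries in the fit none of these 3 genes was called (0.346, 0.243 and 0.318 for Pou5f1, Nanog and Sox2). The list's count in MC was 7 without FC 2 or without FC 3. Both Pou5f1 and Nanog turned to higher in FC, by 0.78 and 1.0, if the libraries coded MIR were taken as the untreated males.

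Of the 19 germ cell genes of both sexes, 12 were not called, 3 were higher in FC and 4 in MC, with a median of 0.03. Over all genes 23.3% were higher in FC and 30.0% in MC. Tfap2c, an early germ cell specifier, was higher in FC, at 58.6 ± 3.34 against 26.3 ± 6.36 (difference 1.15), as was Mael, at 189 ± 20.1 against 97.7 ± 10.8 (difference 0.94). Kit, the receptor for stem cell factor, was at 84.8 ± 3.61 and 89.0 ± 6.93 and was not called. The piRNA pathway silences transposons in germ cells, most actively in the fetal testis; of its 19 genes tested, 10 were higher in FC and 2 in MC, with a median of 0.36. With Mael and Tex15, those with the lowest adjusted p were Fkbp6, at 158 ± 6.29 against 110 ± 5.65, and Gpat2, at 53.5 ± 5.83 against 35.9 ± 2.03. Piwil2 was not called, at 53.6 and 50.9 FPKM. Tdrd5 and Tdrd12, which act in piRNA production, were the 2 genes higher in MC, by 0.53 and 0.38.

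**Figure D4:**
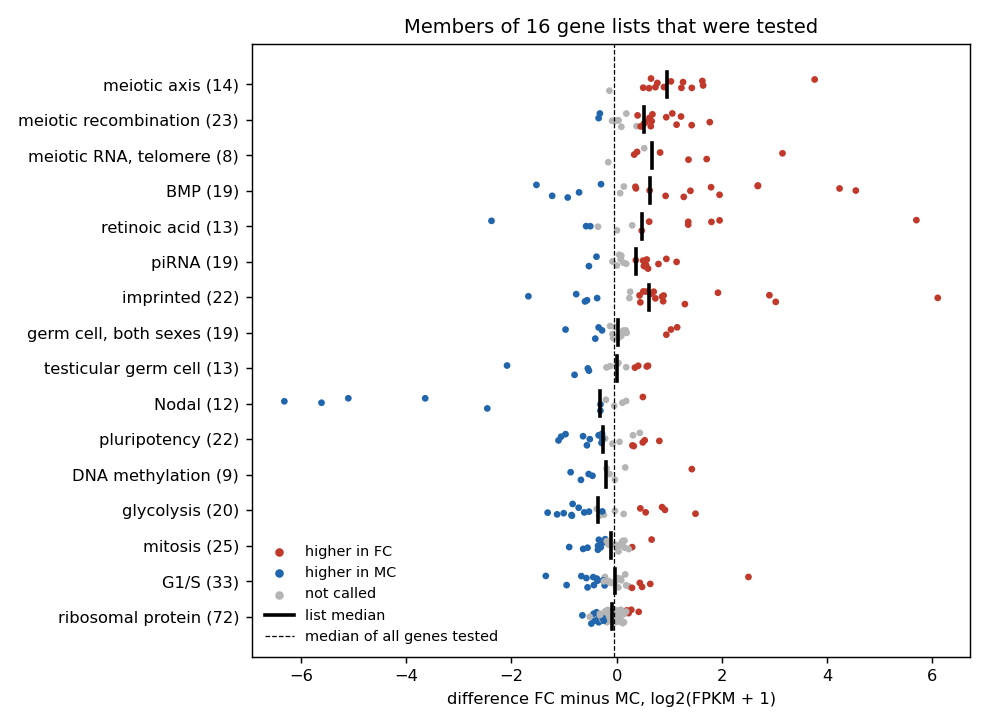
Difference FC minus MC on log2(FPKM + 1) for the tested members of 16 gene lists, with the number tested in brackets; red and blue mark genes called higher in FC and in MC, bars the list medians and the dashed line the median of all genes, -0.05. Meiotic lists lie to the right, and the Nodal list spreads furthest to the left.

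Enzymes of DNA demethylation were divided between the gonads. Tet2 was at 7.10, 6.27 and 7.01 FPKM in FC and at 1.55, 2.45 and 1.75 in MC (difference 1.43; limma adjusted p = 4.34e-05), whereas Tet1 was at 28.2, 23.8 and 23.2 against 38.7, 58.2 and 45.0 (difference -0.87; limma adjusted p = 7.24e-04). Neither pair of ranges overlapped, and the sign of the difference was opposite for these related enzymes. Dnmt3b, a de novo methyltransferase, was higher in MC by 0.68, and Dnmt1, the maintenance enzyme, was not called, at 101 ± 9.79 and 111 ± 11.3. In all, 4 of 9 methylation genes were higher in MC and 1 in FC, beside 30.0% and 23.3% of all genes.

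Of the 14 subunits of PRC1.6, 5 were higher in MC and 3 in FC, where the shares over all genes were 30.0% and 23.3%. Max and L3mbtl2 were higher in MC, at 58.4 ± 0.788 against 40.5 ± 1.6 and at 29.1 ± 1.52 against 19.8 ± 1.24, and Mga was higher in FC, at 35.2 ± 1.58 against 24.3 ± 4.31. Among 11 genes of PRC2, the complex that methylates histone H3 at lysine 27, 8 were not called, including its catalytic subunit Ezh2, at 112 and 107 FPKM. Of the 11, 2 were higher in MC (18.2%) and 1 in FC (9.09%). Phf19, a Polycomb-like accessory subunit, was at 37.9, 43.0 and 40.5 in FC and at 10.7, 8.59 and 8.78 in MC, a difference of 2.01 ± 0.0989 (limma adjusted p = 1.32e-06). Mtf2, its homologue, was lower in FC, by 0.41.

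Imprinted genes carry marks that germ cells erase at about this stage. Of 22 tested, 15 were higher in FC and 5 in MC, with a median of 0.61. Plagl1, a zinc-finger factor, was at 21.3, 18.2 and 19.7 FPKM in FC and at 1.12, 2.27 and 1.38 in MC (difference 3.02), and Slc22a18, a transporter, at 8.56, 8.40 and 9.09 against 0.476, 0.307 and 0.123 (difference 2.90). The ranges did not overlap for either gene. Igf2, a growth factor, and H19, the neighbouring noncoding RNA, were each higher in FC, at 14.8 ± 1.14 against 3.34 ± 1.56 and at 36.4 ± 2.80 against 14.5 ± 3.90, although their imprinted alleles are of opposite parental origin. Mest was higher in MC, at 56.3 ± 9.27 against 16.8 ± 1.75 (difference -1.68), and Snrpn too, at 124 against 83.9. Igf2 and H19 are also expressed in mesenchyme, whose list had higher means in FC; that part was not tested. With the libraries coded MIR as the males, 6 imprinted genes were higher in FC.

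Wnt signalling through beta-catenin raises its own feedback inhibitors. Of 20 Wnt genes tested, 8 were higher in FC and 3 in MC, beside 23.3% and 30.0% of all genes, with a median of 0.17. Of the 8, 2 were under 1 FPKM in every MC library and passed the filter through FC alone. The feedback inhibitors Axin2, Notum and Nkd1 were higher in FC. Axin2 was at 18.5, 17.0 and 15.2 FPKM in FC and at 6.24, 6.27 and 5.90 in MC, a difference of 1.32 ± 0.0987 (limma adjusted p = 1.21e-05), and Notum was at 12.9 ± 0.319 against 4.18 ± 1.13. The ligand Wnt3 went the other way, at 0.816, 1.16 and 0.912 against 11.4, 15.4 and 13.9 (difference -2.88; limma adjusted p = 9.61e-07). Ctnnb1, which encodes beta-catenin, and Lef1 were not called, at 298 and 315 and at 19.6 and 19.4 FPKM.

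Of 25 genes of mitosis and cytokinesis, 10 were higher in MC and 2 in FC, with a median of -0.11. Over all genes the shares were 30.0% and 23.3%. Aurkb, a kinase of chromosome segregation, was at 23.5, 22.9 and 20.2 FPKM in FC and at 40.9, 44.4 and 41.5 in MC (difference -0.90; limma adjusted p = 3.14e-05), and Birc5, its partner survivin, was lower in FC by 0.64. Kif23, a kinesin of the midbody, was higher in FC, at 54.7 ± 1.83 against 34.2 ± 1.63. Mki67, which marks cycling cells, was not called, at 71.9 ± 3.14 and 78.1 ± 8.33. The count in MC was 4 with quantile normalization. With the libraries coded MIR as the males, 1 gene of the list was higher in MIR.

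In the G1/S list, 11 of 33 genes were higher in MC and 5 in FC, beside 30.0% and 23.3% of all genes. Ccnd1, cyclin D1, was at 9.37 FPKM or more in each FC library and at 0.862, 1.68 and 1.32 in MC, a difference of 2.50 ± 0.173 (limma adjusted p = 7.89e-06); Oraov1 overlaps it and was at 6.08 and 5.91. Its kinase partners Cdk6 and Cdk4 were lower in FC, at 2.57 against 8.09 and at 151 against 293 (differences -1.35 and -0.95). Ccnd3, cyclin D3, was not called, at 48.5 ± 6.06 and 48.0 ± 10.9. Among 7 inhibitors of cyclin-dependent kinases, Cdkn1a, Cdkn1c and Cdkn2d were higher in FC and Cdkn1b, Cdkn2a and Cdkn2b in MC. Cdkn2d, which encodes p19, was at 21.7 ± 3.76 against 10.3 ± 1.19 (difference 1.0).

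The p53 targets, used above as a check of the labels, were also compared between the sexes. Of 25 tested, 6 were higher in FC and 8 in MC, with a median of -0.04, beside 23.3% and 30.0% and a median of -0.05 over all genes. Besides Pmaip1, Sesn2 and Bax were higher in MC, Bax, a pore-forming death protein, at 232 ± 25.3 against 138 ± 2.94 FPKM. Perp, a membrane protein, was higher in FC, at 14.3 ± 1.65 against 4.57 ± 1.34 (difference 1.48). Mdm2, the p53 ubiquitin ligase, was not called, at 82.4 ± 1.04 and 87.5 ± 1.20.

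Of 20 genes of glucose uptake and glycolysis, 10 were higher in MC and 5 in FC, with a median of -0.36; over all genes the shares were 30.0% and 23.3%. Slc2a1, the glucose transporter GLUT1, was at 8.21, 7.53 and 7.45 FPKM in FC and at 21.8, 21.4 and 19 in MC (difference -1.31; limma adjusted p = 8.58e-06), while Slc2a3, the transporter GLUT3, was higher in FC, at 46.3 ± 3.62 against 33.6 ± 1.97. Lactate dehydrogenase subunits also parted: Ldhb was at 189, 197 and 181 in FC and at 342, 328 and 361 in MC (difference -0.86), and Ldha at 33.2, 34.3 and 33.3 against 9.28 to 13.3 (difference 1.5; limma adjusted p = 1.51e-05). The groups did not overlap for either subunit. Pkm, pyruvate kinase, was lower in FC by 0.84. Ldha was lower in FC, by 0.99, if the libraries coded MIR were taken as the males.

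Most members of the housekeeping lists were not called, whereas 53.2% of all genes tested were, 30.0% higher in MC and 23.3% higher in FC. Of 72 ribosomal protein genes, 56 were not called, 12 were higher in MC and 4 in FC. Rplp0 stood out among them, at 857 ± 34.7 FPKM in FC and 1352 ± 168 in MC (difference -0.65). Of 72 respiratory chain genes, 49 were not called, 14 were higher in MC and 9 in FC. Replication-dependent histone genes were mostly below the filter, 53 of 67; of the 14 tested, 5 were higher in FC and none in MC, and Hist1h4d was at 3.41, 2.52 and 5.39 against 0.621, 0 and 0.480. Near-identical copies make single histone and ribosomal protein genes uncertain.

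Some of the largest differences stood next to each other on the chromosome. Lefty2 and Lefty1 on chromosome 1 lie 41.9 kb apart, start to start, and Tmem63a, 49.2 kb from the Lefty2 start, was also more than 2-fold higher in MC. Tmem63a, a membrane channel gene, was listed at 0.925, 0.644 and 0.590 FPKM in FC and at 15.7, 18.3 and 16.5 in MC, a difference of -3.37 ± 0.119 (limma adjusted p = 1.91e-07). Lefty1 and Tmem63a thus followed the direction of Lefty2. Both were under 1 FPKM in every FC library and passed the filter through MC alone. On the other side, Sde2 at -42.0 kb was less than 2-fold higher in MC (difference -0.58), and Acbd3 at -167 kb was slightly higher in FC, by 0.18. Whether transcripts run from one gene into the next was not tested.

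At the imprinted cluster on chromosome 7, Slc22a18, 29.4 kb from Phlda2, and Cdkn1c, 42.1 kb from it, were also higher in FC, by 2.90 and 0.86. On the other side Nap1l4 was not called (142 and 153 FPKM), and Cars was slightly higher in MC, by 0.24. Id1 and Defb19 on chromosome 2, 155.9 kb apart, were among the largest differences in opposite directions, and H13, Mcts2 and Bcl2l1 near them were not called. By whole chromosome, the share of tested genes higher in FC ran from 17.8% on chromosome 17 to 27.7% on chromosome 9, and the share higher in MC from 24.2% on chromosome 13 to 35.7% on chromosome 8.

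**Figure D5:**
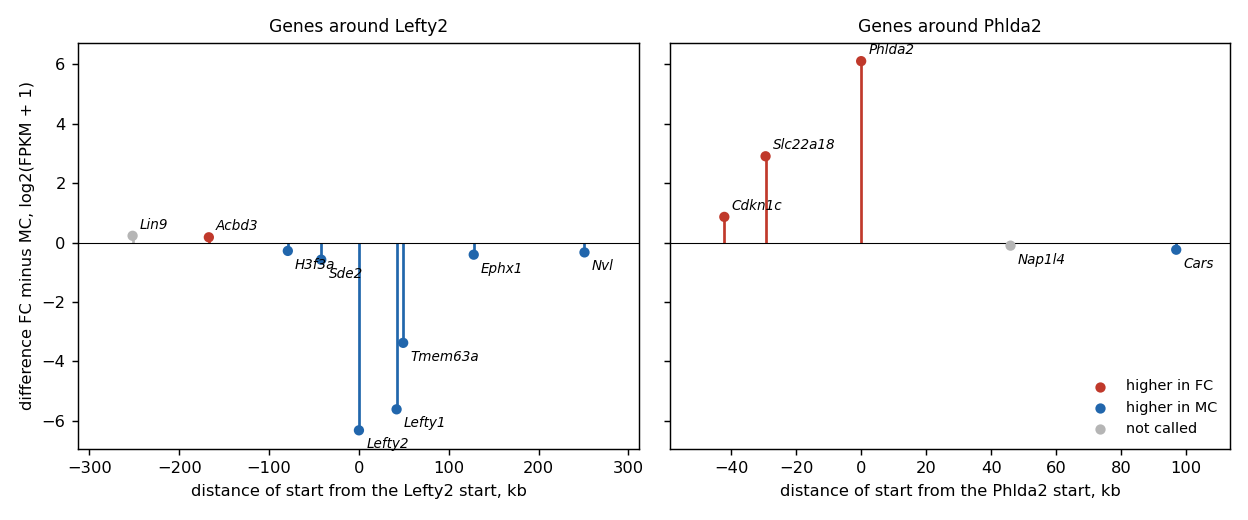
Difference FC minus MC on log2(FPKM + 1) of genes tested around Lefty2 (left) and Phlda2 (right), against the distance in kb of each gene's start from theirs. Lefty1 and Tmem63a lie within 49.2 kb of Lefty2 and are both higher in MC; Slc22a18 and Cdkn1c are higher in FC with Phlda2, while Nap1l4 is not called.

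Among the somatic markers, the 7 Sertoli genes called were each under 1 FPKM in every FC library, so they passed the filter through MC alone and could be called in that direction only. Amh was listed at 0, 0.0478 and 0.0454 FPKM in FC and at 15.1, 28.0 and 24.8 in MC, a difference of -4.47 ± 0.198 (limma adjusted p = 7.69e-07). Dhh and Hsd17b3 were listed at 0 in all FC libraries and at 2.55 ± 0.424 and 3.87 ± 1.43 in MC. Sox9, the factor that makes Sertoli cells, was below the filter, at 0.488, 1.06 and 0.903 in MC. Of the macrophage genes, Fcgr3 was at 2.67 ± 0.590 in FC and 0.559 ± 0.172 in MC (difference 1.23); like C1qa and C1qc, it was under 1 FPKM in every MC library and passed the filter through FC alone. C1qb, a complement gene, was at 1.2, 1.33 and 1.73 in MC and was higher in FC. Of the pregranulosa genes, Irx3 was higher in FC, at 1.33 ± 0.176 against 0.165 ± 0.107. Irx3 was also under 1 FPKM in every MC library and passed the filter through FC alone. Fst was called at an adjusted p of 0.0498 by limma. That call was lost without FC 1, 2 or 3 (0.0884, 0.0735 and 0.161) and without MC 1 or 2 (0.0751 and 0.134). Only 1 Leydig, 2 endothelial and 3 erythroid markers passed the filter, and none of them was called, beside 53.2% of all genes. With so few tested, equal levels are not shown. Means were higher in MC for 5 of 6 Leydig, 6 of 7 endothelial and 5 of 7 erythroid genes. The erythroid sum was above every FC library in MC 2 but below every FC library in MC 1 and MC 3. On log2(FPKM + 1) the 3 erythroid genes tested had differences of 0.098 to 0.71, toward FC. Lum, a mesenchyme gene, was called with a limma adjusted p of 0.0355, lost without FC 1, 2 or 3 (0.0835, 0.0609 and 0.112) or MC 1 or 3 (0.0758 and 0.0520). All 3 called mesenchyme genes, Lum among them, were under 1 FPKM in every MC library. They passed the filter through FC alone and could be called in that direction only.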

How the data were processed

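RNA had been depleted of ribosomal RNA by hybridization and made into libraries with the NEBNext Ultra II kit, per the labels' protocols. The values are FPKM as deposited by the authors; the build mm10 and DESeq2 are named in the submitters' processing notes, and no source used here gives the aligner, counting program, strand setting or annotation. Symbols were placed with GENCODE M21 (21699 of 23361) or RefSeq symbols and synonyms (211 and 1299); 142 were not found and 10 lay on several chromosomes.

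FPKM were tested on log2(FPKM + 1) in limma 3.58.1 (R 4.3.3; limma-trend, two-sided, Benjamini-Hochberg over 10881 genes, threshold 0.05), after a test on simulated data. FC 1 to 3 and MC 1 to 3 alone entered the fit. Python 3.11.15, numpy 2.4.6, pandas 2.3.3 and matplotlib 3.10.9 were used for the rest. Depth, estimated from the steps of low FPKM values, differed less than 2-fold between libraries. At the chosen depths, 63.6% to 70.1% of low values were whole within 0.1 fragment. Chance gives 20% for a depth fixed beforehand. Each depth was chosen to make these same values whole, so 20% is not a fair baseline. Depths are thus rough and no count test was run.

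Members and lists were chosen with earlier results of these data known. Named were the 10 largest called differences in each direction with ranges that do not overlap (no predicted, pseudogene or small RNA genes), the called genes with the lowest adjusted p in each list, at most 4, and a fixed set of germ cell and marker genes; other genes were named as list members or neighbours after their values were seen. A few genes that the rule names are not reported here, in the text or by name in the figures. Alternatives covered pseudocount, filter, scaling, weights, libraries in the fit, replicate block, chromosomes, the male codes and each library left out.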

Additional observations from a re-analysis of the deposited data

How the results depend on the processing

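Of the 18 alternatives, the exchange of the male codes was the one that turned named differences. With MIR in place of MC, 3429 genes were higher in FC and 3590 in MIR, and 653 calls had the opposite sign. The counts higher in FC were then 6 imprinted and 1 macrophage genes, and those higher in MIR 1 mitotic, 1 pluripotency and 13 Sertoli genes. Differences that reversed were Atp5a1 (0.0124), Atp5b (0.11), Bub1b (0.17), C1qa (-0.43), C1qb (-0.50), C1qc (-0.51), Cbx3 (0.19), Ccng1 (-2.35), Cdkn1a (-1.10), Cdkn2a (1.08), Dcn (-1.22), Dppa3 (0.23), Kit (1.34), L3mbtl2 (0.16), Ldha (-0.99), Lum (-0.53), Max (0.0932), Mcm2 (0.45), Mtf2 (0.0767), Nanog (0.995), Ndufv3 (0.0019), Ooep (0.0156), Perp (-0.94), Pou5f1 (0.78), Rps13 (0.0446), Tet1 (0.26), Trim28 (0.82), Utf1 (0.19) and Wnt5a (-0.0719). Stra8 (6.11), Rec8 (3.07), Id1 (2.04), Phlda2 (6.64), Lefty2 (-4.58) and Nodal (-1.87) kept their sign and call.

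With an FPKM of 5 as the filter, 1656 of 8118 genes were higher in FC, with 0 macrophage genes (none of that list passed) and 3 Sertoli genes higher in MC; fewer genes were tested. With all 12 libraries in the fit, 6 mitotic and 5 pluripotency genes were higher in MC and 3 macrophage and 9 recombination genes in FC. Quantile normalization left 4 mitotic genes higher in MC. Leaving out 1 library at a time gave 2007 to 2564 genes higher in FC, 2710 to 3341 higher in MC, and 7 to 12 pluripotency genes higher in MC. With the replicate number as a block (replicate block), 2601 genes were higher in FC and 3322 in MC. Deviations from the group mean correlated at 0.03 to 0.08 between same-numbered libraries and at -0.11 to 0.06 between the others. Correlations this weak cannot decide whether the numbers pair the samples. The cause of the shifts between settings was not tested. Depths rest on FPKM steps, so counting error of low genes is not known.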

Other observations

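Genes on the X chromosome, left out of the comparison, leaned to the ovary when all chromosomes were fitted together by limma: of 435 tested, 282 were higher in FC and 35 in MC, with a median difference of 0.52 on log2(FPKM + 1). Over all 11376 genes of that fit, 2832 were higher in FC and 3315 in MC.

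A few large differences lay outside the fixed lists and were chosen after their values were seen. Otx2, a homeobox gene of the anterior epiblast and head, was at 0.675, 0.298 and 0.786 FPKM in FC and at 11.9, 21.9 and 21.4 in MC, a difference of -3.58 ± 0.223 (limma adjusted p = 4.90e-06). Mgst2, a glutathione transferase, was at 1.19 ± 0.355 against 22 ± 5.05 (difference -3.38). Cubn, an endocytic receptor, was at 5.56, 6.26 and 6.06 in FC and at 0.0247, 0.0410 and 0.0430 in MC (difference 2.75, limma adjusted p = 4.33e-07). Otx2 was under 1 FPKM in every FC library and Cubn in every MC library, so each passed the filter through the higher group alone. The small nucleolar RNA genes Snora41, Snora33 and Snora3 had differences of -4.76, -4.70 and -4.28, but each was listed at 0 in 2 of the 3 FC libraries, and Snora33 ranged from 50.4 to 334 FPKM in MC.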
